A study of Rattus norvegicus with 8 samples.

Results

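Actg2 (ENSRNOG00000029401), Acta2 (ENSRNOG00000058039), Casq1 (ENSRNOG00000006930), Mybpc1 (ENSRNOG00000056493) and Car3 (ENSRNOG00000010079) are 5 muscle genes among the 32623 Ensembl genes counted in rat dorsal root ganglia (DRG), and all 5 were among the 16988 genes with enough counts to be tested. They were chosen by name because their change after nerve injury in these libraries was already known. All 5 are in the study's list of genes whose change differed between the sexes, Mybpc1 and Car3 are also in its list for injured males and Actg2 in its list for naïve females. Their levels and fold changes are therefore given as a description, with no test. The groups were naïve male, CCI male, naïve female and CCI female Sprague-Dawley rats, with 2 rats each and 1 library from the pooled ipsilateral L4-L6 DRGs of each rat. Chronic constriction injury (CCI) is a loose ligation of the sciatic nerve, which was reached through a thigh muscle, and the DRGs were taken 14 days later. Naïve rats had no surgery, so that the incision and the ligation cannot be told apart. All rats were gonadally intact adults, the estrous stage of the females was not recorded, and CCI rats without a clear fall of the paw withdrawal threshold were not used.

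Total counts ranged from 39489103 to 60818457 per library. Levels are given in CPM, the count as a share of the library after scaling with TMM factors, for each rat or as mean ± SD of n = 2 rats. CPM are not corrected for gene length, so levels are compared between libraries and not between genes. Atf3, a transcription factor that injured sensory neurons switch on, was at 11.0 to 12.7 CPM in the 4 naïve libraries and at 67.7 to 133 CPM in the 4 CCI libraries, which separated them by their labels. Of the markers of sensory neurons with a known identifier, 7 were tested, among them the defining genes Nefh, Calca and Avil, and their summed level was 26765 to 27252 CPM in CCI males and 16213 to 24889 CPM in the other libraries. By edgeR's test all 7 rose in injured males (median log2FC 0.70), beside 9.05% of all genes, and the muscle genes were also highest there. The part of this shift in the levels of the muscle genes was not tested. Identifiers came from the study's lists of genes called on these libraries, so the count of 7 is not independent evidence. In such bulk samples, fewer cells of a type and less RNA per cell cannot be told apart.

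Smooth muscle contracts with actin isoforms of its own. Acta2 encodes the alpha actin of vascular smooth muscle, which is also made by some pericytes and by myofibroblasts, and Actg2 encodes the gamma actin of enteric and other visceral smooth muscle. Skeletal muscle fibres shorten when calcium leaves the sarcoplasmic reticulum and lets myosin pull on the thin filament. Casq1 encodes calsequestrin 1, which stores calcium in that reticulum, and Mybpc1 the slow form of myosin binding protein C, which sits on the thick filament. Car3 encodes carbonic anhydrase 3, a cytosolic enzyme that is abundant in slow skeletal fibres and in fat cells of rodents. A DRG holds blood vessels with smooth muscle but no skeletal muscle fibres, and lies close to the paraspinal muscles.

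The sequences before the annotated starts of Acta2, Casq1 and Mybpc1 are shown because these genes, whose levels parted between the sexes after CCI, come from smooth and from skeletal muscle. They are the 250 bases before the RefSeq start on build GRCr8, which is not the rn6 build on which the reads were counted. All 3 genes lie on the minus strand, and the sequences are written 5′ to 3′ along the gene. Capitals mark matches, on either strand, to a CArG box with 1 inner G or C (the binding site of serum response factor, with 1 base other than A or T among its inner bases), to CAGCTG (an E-box of the kind bound by myogenic factors) and to TATAAA, an element of many core promoters.
Acta2, chr1:241172504-241172753: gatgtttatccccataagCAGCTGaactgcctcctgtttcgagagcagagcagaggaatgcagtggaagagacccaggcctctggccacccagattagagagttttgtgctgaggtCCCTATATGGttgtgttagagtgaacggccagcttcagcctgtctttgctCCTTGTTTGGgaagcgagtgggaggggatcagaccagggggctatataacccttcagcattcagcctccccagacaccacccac
Casq1, chr13:87212711-87212960: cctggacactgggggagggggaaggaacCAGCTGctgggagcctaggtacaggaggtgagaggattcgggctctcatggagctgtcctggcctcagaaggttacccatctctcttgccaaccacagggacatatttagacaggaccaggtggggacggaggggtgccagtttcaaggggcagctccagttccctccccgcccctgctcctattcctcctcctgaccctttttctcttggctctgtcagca
Mybpc1, chr7:24903374-24903623: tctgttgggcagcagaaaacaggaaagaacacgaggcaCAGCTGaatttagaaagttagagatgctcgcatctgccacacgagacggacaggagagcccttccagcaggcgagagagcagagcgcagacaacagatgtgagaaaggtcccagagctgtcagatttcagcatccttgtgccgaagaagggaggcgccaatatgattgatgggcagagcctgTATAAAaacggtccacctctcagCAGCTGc
The Acta2 window held 2 such CArG boxes, which begin 134 and 84 bases before the start, and the Casq1 and Mybpc1 windows held none. Of 33469 windows of this length in the table, 6.84% held such a box and 1.5% held a CArG box with only A and T inside. CAGCTG was found once before Acta2, once before Casq1 and at 2 places before Mybpc1, against 12% of all windows, and TATAAA began 30 bases before the start of Mybpc1, against 12.9%. None of the 3 windows held a MEF2 site, which 2.96% of all windows held. The table has a window for Actg2 that lies inside the annotated gene, 10340 bases from its outer end, and is not printed, and the start used for Mybpc1 lies 308 bases inside the annotated gene.

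The 5 genes had their highest levels in CCI males and were lower after CCI in females. In males all 5 had a log2 fold change (log2FC) above 0 after CCI, with a median of 3.05, and in females all 5 had a log2FC below 0, with a median of -0.95. The medians over all genes tested were -0.01 and -0.02. Both CCI males lay above both naïve males in all 5, as in 36.3% of all genes. Both CCI females lay below both naïve females in 4 of the 5, as in 29% of all genes, and Car3 overlapped. The genes were chosen on these contrasts, and all comparisons share libraries, so nothing is read from the counts. The share of all genes in which CCI males lay above every other library was not computed. The same holds for the share in which no 2 groups overlapped. The plot of CPM by library shows each value.

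**Figure D1:**
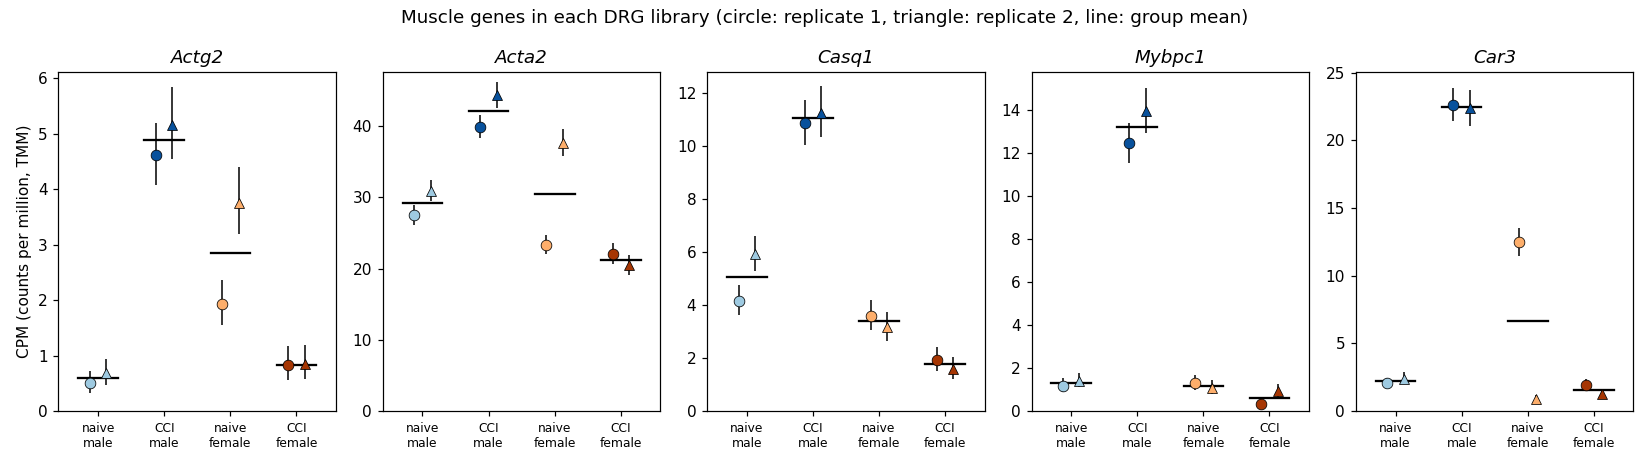
CPM of each muscle gene in each library on linear axes from 0, by group, with circles for replicate 1, triangles for replicate 2, horizontal lines for the group mean and bars for the exact Poisson 95% interval of the count, which covers counting error only. For each gene both CCI males lie above all other libraries, a pattern whose share over all genes was not computed. Car3 is at 12.5 CPM in 1 naïve female and at 0.875 CPM in the other.

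Of the smooth muscle genes, Actg2 showed the larger differences. Naïve males had 26 and 37 counts, CCI males 269 and 250, naïve females 91 and 159, and CCI females 32 and 33. The levels were 0.497 and 0.679 CPM, 4.61 and 5.16 CPM, 1.92 and 3.76 CPM, and 0.827 and 0.844 CPM, in the same order. No 2 groups overlapped, and the order from high to low was CCI males, naïve females, CCI females and naïve males. After CCI the log2FC of Actg2 was 3.05 (SE 0.237) in males and -1.77 (SE 0.377) in females. Between the naïve groups it was 2.27 (SE 0.422) with the higher level in females. In the naïve comparison both females lay above both males for Actg2, as for 29.5% of all genes, and below both males for Casq1, as for 30.5%. The naïve females differed 1.95-fold from each other, and the female log2FC was -1.21 without naïve female 2 and -2.18 without naïve female 1. The lowest counts of Actg2 were few, and the exact Poisson 95% interval of the 26 counts runs from 17.0 to 38.1.

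Acta2 varied over a much narrower range. Naïve males were at 27.5 and 30.9 CPM, CCI males at 39.9 and 44.3 CPM, naïve females at 23.4 and 37.6 CPM, and CCI females at 22.0 and 20.4 CPM. CCI males were above every other library, while the naïve groups overlapped. The log2FC after CCI was 0.53 (SE 0.100) in males and -0.53 (SE 0.202) in females. The naïve females differed 1.61-fold from each other, and without naïve female 2 the female log2FC was -0.14. With each male left out in turn the male log2FC lay between 0.44 and 0.62.

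The smooth muscle actins did not move in proportion to each other. For each 100 counts of Acta2 naïve males had 1.81 and 2.19 counts of Actg2, CCI males 11.5 and 11.6, naïve females 8.24 and 9.99, and CCI females 3.75 and 4.13. The 2 rats of a group lay close together in this ratio, also in naïve females, where Actg2 and Acta2 were both higher in naïve female 2. Actins are close paralogs whose reads can match more than 1 gene, and how the authors' counting treated such reads is not given in the sources used here. Actg1, a cytoplasmic actin that is no smooth muscle gene, was lowest in naïve males at 336 to 413 CPM, and lay at 525 to 612 CPM in the 6 other libraries. Acta1, Actc1 and Actb have no identifier in the tables used and were not analysed here.

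Of the skeletal muscle genes, Mybpc1 had the widest difference between CCI males and all other groups. Naïve males were at 1.19 and 1.41 CPM, CCI males at 12.5 and 13.9 CPM, naïve females at 1.29 and 1.06 CPM, and CCI females at 0.310 and 0.921 CPM. Both CCI males were far above all other libraries, both CCI females were the lowest, and the naïve groups overlapped. The log2FC after CCI was 3.35 (SE 0.160) in males, a 10.2-fold difference, and -0.94 (SE 0.488) in females. The female value rests on 12 and 36 counts in the CCI females and was -1.92 without CCI female 2 and -0.35 without CCI female 1.

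Casq1 differed less between CCI and naïve males than Mybpc1 did. Its level was 4.17 and 5.92 CPM for naïve males, 10.9 and 11.3 CPM for CCI males, 3.59 and 3.17 CPM for naïve females, and 1.94 and 1.59 CPM for CCI females. No 2 groups overlapped, and both male groups lay above both female groups. The log2FC after CCI was 1.13 (SE 0.199) in males and -0.95 (SE 0.232) in females, and that of naïve females against naïve males was -0.57 (SE 0.230). Of the 5 genes, Casq1 was the 1 whose female log2FC moved least with each female left out in turn, from -1.09 to -0.80.

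Car3 stood out by 1 rat. Naïve males were at 2.05 and 2.40 CPM and CCI males at 22.6 and 22.3 CPM, whereas naïve females were at 12.5 and 0.875 CPM and CCI females at 1.91 and 1.23 CPM. The male groups were apart and narrow, whereas the naïve females were 14.3-fold apart and spanned naïve males and CCI females. The log2FC after CCI was 3.34 (SE 0.120) in males and -2.10 (SE 0.940) in females. Without naïve female 1 the female log2FC was 0.83, and without naïve female 2 it was -2.99. The direction of Car3 in females thus rested on naïve female 1, and the naïve log2FC between the sexes was 1.59 with it and -1.33 without it.

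**Figure D2:**
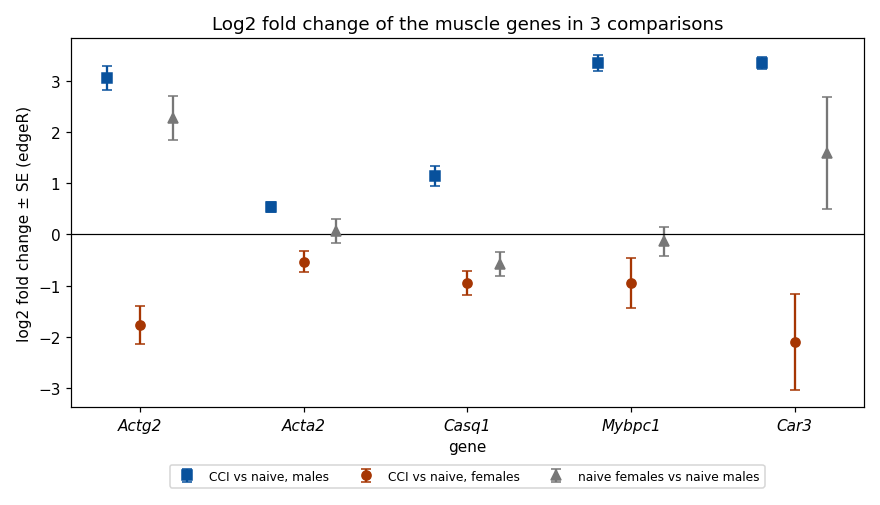
Log2 fold change ± SE from edgeR of each muscle gene after CCI in males (squares), after CCI in females (circles) and between naïve females and naïve males (triangles), with the line at 0 for no difference. The male values after CCI lie from 0.53 to 3.35 and the female values from -2.10 to -0.53, and the error bars are widest for Car3 in the comparisons that hold the naïve females.

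The genes were chosen for the difference between the sexes in the response to CCI, and its size is given as a description. The log2FC of the interaction (the female log2FC minus the male log2FC) was -4.81 (SE 0.486) for Actg2, -1.05 (SE 0.278) for Acta2, -2.07 (SE 0.285) for Casq1, -4.27 (SE 0.554) for Mybpc1 and -5.43 (SE 1.31) for Car3. In Actg2, Acta2, Casq1 and Mybpc1 both CCI males were above both naïve males and both CCI females below both naïve females, a pattern found in 3.59% of all genes tested. The value for Car3 was -2.49 without naïve female 1.

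Ratios of counts within a library set the skeletal genes against each other without any scaling. For each 100 counts of Mybpc1 naïve males had 173 and 170 counts of Car3 and CCI males 182 and 160. Car3 and Mybpc1 thus kept nearly 1 proportion in all 4 male libraries while each was about 10.1-fold to 10.2-fold higher after CCI. In females the proportion was scattered, at 967 and 82.2 for the naïve and 617 and 133 for the injured rats, and the high value of each group was that of replicate 1. For each 100 counts of Casq1 naïve males had 28.4 and 23.8 counts of Mybpc1 and CCI males 115 and 124. Naïve females had 35.9 and 33.6, and CCI females 16.0 and 58.1. Casq1 therefore did not keep a fixed proportion to Mybpc1 in males.

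**Figure D3:**
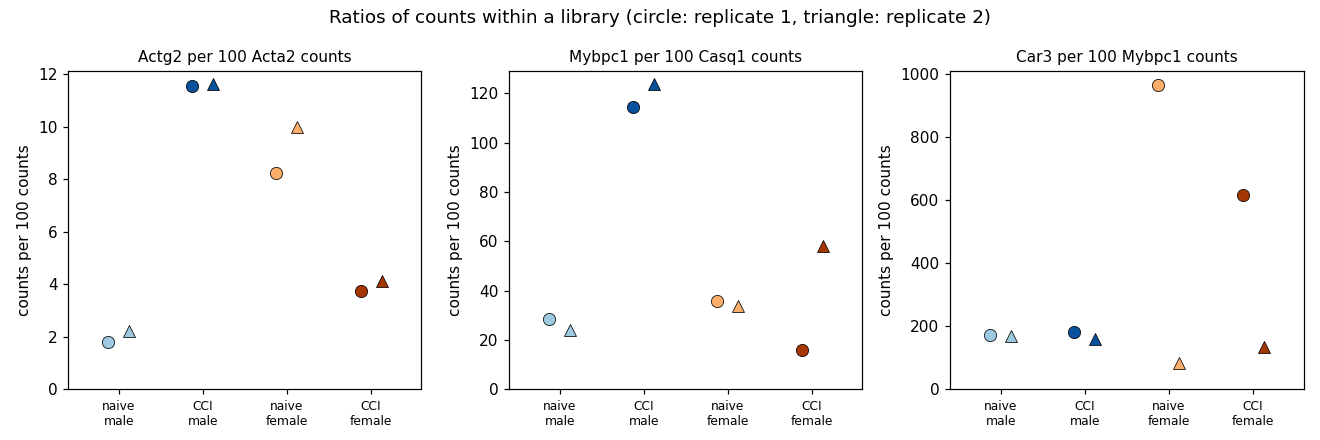
Counts of Actg2 per 100 counts of Acta2, of Mybpc1 per 100 of Casq1 and of Car3 per 100 of Mybpc1 in each library, on linear axes from 0, with circles for replicate 1 and triangles for replicate 2. The ratio of Car3 to Mybpc1 is 160 to 182 in the 4 male libraries and 82.2 to 967 in the 4 female libraries.

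Other genes of skeletal muscle were taken from a list of 78 genes. Only 16 of them have an identifier in the study's tables, which list genes that were called on these libraries, so their direction is not independent evidence. A gene of this list was called where edgeR's quasi-likelihood test gave a Benjamini-Hochberg adjusted p under 0.05 with a log2FC beyond 0.5 in either direction (for the interaction, the adjusted p alone). In males after CCI, 12 of the 16 rose and 1 fell (9.05% of all genes rose and 12.5% fell), with a median log2FC of 2.29. Both CCI males lay above both naïve males in 14 of the 16, against the 36.3% of all genes given above. In females 0 of the 16 were called by edgeR and 1 by DESeq2, 2 had an unadjusted p under 0.05, and the median log2FC was 0.13, where 5.69% of all genes were called. Between the naïve groups 0 of the 16 were called by edgeR and 3 by DESeq2, 9 had an unadjusted p under 0.05, and the median log2FC was -0.71 with lower levels in females, where 0.0706% of all genes were called. By the interaction term 3 of the 16 were called lower, as were 0.547% of all genes while 1.04% were called higher: Actn2 (log2FC -2.67, adjusted p = 0.0469), Eno3 (log2FC -1.41, adjusted p = 0.0469) and Pygm (log2FC -0.98, adjusted p = 0.0483). In the main fit of the interaction 14 of the 16 had an unadjusted p under 0.05. Most fits with 1 library left out kept none of these calls, and those fits called nearly none of all genes. In each of these 8 fits 14 of the 16 had a log2FC below 0. The male count was 0 without CCI male 1, where edgeR called 0 of all genes and 13 of the 16 had an unadjusted p under 0.05, and 5 without CCI male 2. With each male left out, 14 of the 16 had a log2FC above 0.

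By role, few of the listed genes could be looked up, and only through the study's lists of genes called on these libraries. Their direction is therefore not independent evidence. Of 13 thick filament genes 1 was tested, Mybpc2, the fast form of myosin binding protein C, had 2.35 ± 1.73 CPM in naïve and 12.5 ± 0.350 CPM in injured males, a rise with a log2FC of 2.40 (SE 0.543) and an adjusted p = 0.0256. Of 17 genes of the Z-disc and M-band 6 were tested. In males 4 rose and 1 (Myom2) fell, beside 9.05% and 12.5% of all genes. Among those that rose was Actn3, the actinin of fast fibres. It had 3.74 ± 3.32 CPM in naïve and 22.4 ± 2.16 CPM in injured males (log2FC 2.57, SE 0.665, adjusted p = 0.0365). Of 13 genes of excitation-contraction coupling, the set to which Casq1 belongs, 2 were tested and both rose, beside the same 9.05% of all genes. Trdn, which encodes triadin, the anchor of calsequestrin at the calcium release channel, had 1.72 ± 0.188 CPM in naïve and 7.77 ± 0.371 CPM in injured males (log2FC 2.18, SE 0.157, adjusted p = 0.00565). Hrc, a calcium-binding protein of the same reticulum, had 0.709 ± 0.191 CPM in naïve and 2.58 ± 0.0857 CPM in injured males, with a log2FC of 1.86 (SE 0.270) and an adjusted p = 0.00871.

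Of 14 genes of muscle energy metabolism 5 were tested, and these 5 rose in males, beside the 9.05% of all genes. They too were looked up through the study's lists of called genes, so this count is not independent evidence. Mb, which encodes the oxygen store myoglobin and is a defining marker of muscle fibres, had 0.115 and 0.165 CPM in naïve and 4.90 and 4.68 CPM in injured males. These are 6 and 9 counts against 286 and 227 (log2FC 5.08, SE 0.260). Mb passed the filter on counts only through the CCI males, so no p is given for it. With at least 10 counts required in every library, 9 genes of the skeletal list were called in males, in place of 13. In all 4 female libraries Mb stayed between 0.0517 and 0.281 CPM. Tnni2, the fast troponin I and the other defining marker with an identifier, had 0.631 and 3.98 CPM in the naïve males, 14.5 CPM in both CCI males and 0.207 to 1.28 CPM in the female libraries. Its male log2FC of 2.65 (SE 0.809) had an adjusted p = 0.0570 and did not pass. The other 13 defining markers, such as Acta1, Ckm and the myosin heavy chains, were not analysed here.

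Some genes of the list did not follow. Myom2, an M-band protein, had 52.3 ± 9.47 CPM in naïve and 21.1 ± 0.325 CPM in injured males, a fall with a log2FC of -1.31 (SE 0.129) and an adjusted p = 0.00565. Cdh15, a cadherin of muscle satellite cells, had 86.9 and 76.5 CPM in naïve and 57.7 and 63.7 CPM in injured males, a log2FC of -0.42 (SE 0.0908, adjusted p = 0.0222) that is short of the fold threshold, and 47.5 to 52.8 CPM in the female libraries. Smpx, a small muscle protein, was at 8.58 to 10.6 CPM in males and was likewise not called. Outside this list, 3 genes found in both striated and smooth muscle were tested. In females edgeR called Flnc higher (log2FC 0.90, adjusted p = 0.00265) and Hspb6 lower (log2FC -0.59, adjusted p = 0.0199), where 5.69% of all genes were called. In males only Tpm2 was called, as higher (log2FC 0.78, adjusted p = 0.00738), beside 9.05% of all genes.

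The skeletal genes also differed between rats of a group. In naïve males 13 of the 16 were higher in naïve male 2, with a median ratio of 1.45 and up to 6.31-fold for Tnni2. Mybpc1 and Car3 differed only 1.19-fold and 1.17-fold between the same rats, and Casq1 1.42-fold. In CCI females 13 of the 16 were higher in CCI female 2, with a median ratio of 1.22, and Mybpc1 was 2.97-fold higher in that rat while Casq1 and Car3 were lower in it. In naïve females only 3 of the 16 were higher in naïve female 2. In CCI males the median ratio was 0.998, with 7 of the 16 higher in CCI male 2. The share of all genes higher in the same rat was not computed, so these counts show no difference particular to muscle genes. Over all genes tested, the SD of the log2 difference between the 2 rats was 0.707 in naïve males and 0.631 in CCI males. It was 0.424 in naïve females and 0.409 in CCI females.

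**Figure D4:**
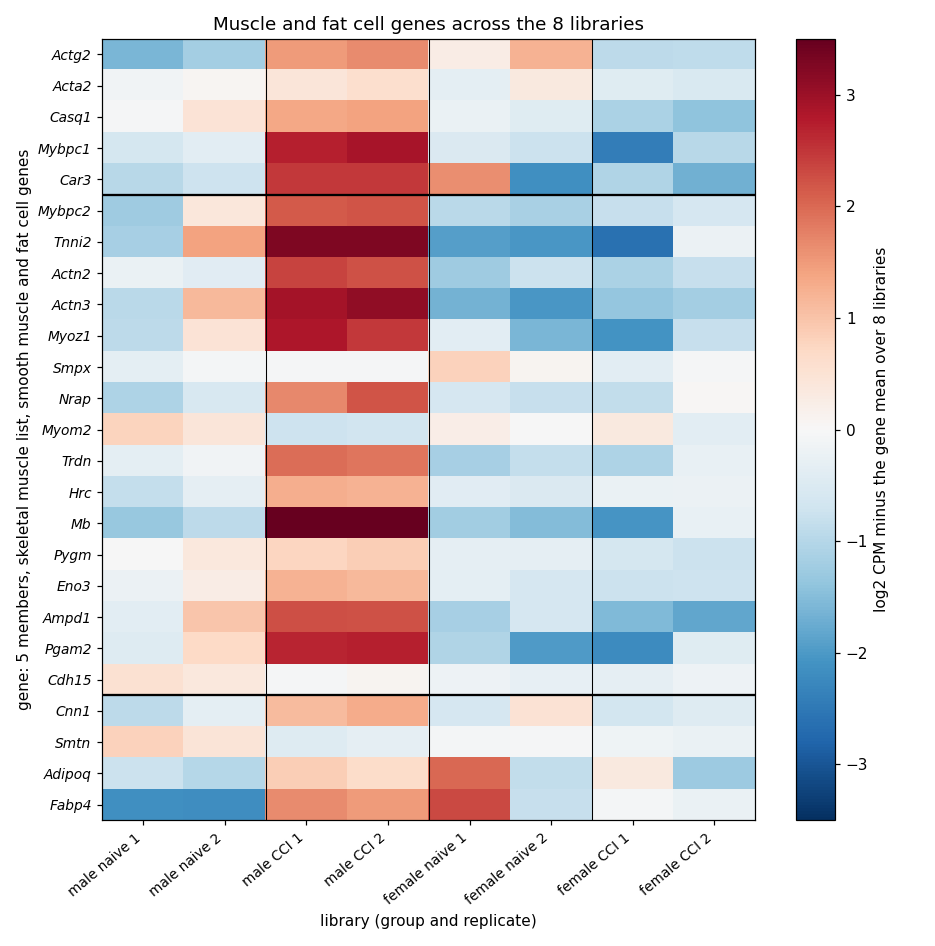
Log2 CPM of each gene minus its own mean over the 8 libraries (columns), with red above and blue below the mean, for rows that hold the 5 muscle genes, the 16 tested genes of the skeletal muscle list, the smooth muscle genes Cnn1 and Smtn and the fat cell genes Adipoq and Fabp4. Both CCI males are red for most skeletal genes, while naïve female 1 is red for Car3, Adipoq and Fabp4 and not for most sarcomere genes.

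Of 24 other smooth muscle genes, 2 have an identifier in the study's tables of called genes, and they moved apart. Cnn1, which encodes the actin-binding protein calponin 1, stood at 0.765 and 1.16 CPM for naïve males, 3.26 and 3.69 CPM for CCI males, 0.972 and 2.10 CPM for naïve females, and 0.930 and 1.08 CPM for CCI females. It rose in males (log2FC 1.85, SE 0.271, adjusted p = 0.00882), and in naïve females its higher value was that of naïve female 2, as for Actg2 and Acta2. Smtn, which encodes smoothelin, a protein of the contractile filaments, had 53.3 ± 9.52 CPM in naïve and 26.2 ± 1.65 CPM in injured males, a fall with a log2FC of -1.02 (SE 0.134) and an adjusted p = 0.00727. Smtn also differed between the sexes by the interaction term (log2FC 0.90, SE 0.168, adjusted p = 0.0499), a call that was lost with DESeq2's size factors and with the replicate number as a block, where Cnn1 was called lower instead. With each library left out, 1 of the pair was called without naïve male 2 and 0 without any other. In females neither was called by edgeR or DESeq2, and 0 of the 2 had an unadjusted p under 0.05. Without CCI male 1, 0 of the 2 were called in males, both with an unadjusted p under 0.05, and without CCI male 2 only 1.

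Markers of other tissues that could lie beside the ganglion were set next to these values. Of 15 fat cell genes, 2 have an identifier in the study's tables of called genes, so their direction is not independent evidence. Adipoq, the hormone adiponectin, was at 3.87 CPM in naïve female 1 against 0.496 CPM in naïve female 2, and Fabp4, a fatty acid binding protein, at 5.45 against 0.591 CPM, in the same direction as Car3. Summed, naïve males had 0.642 to 0.746 CPM, CCI males 4.54 to 5.17 CPM, naïve females 1.09 to 9.32 CPM and CCI females 1.25 to 2.20 CPM of the pair. Both rose in males after CCI by edgeR's test, beside 9.05% of all genes. The log2FC was 1.72 (SE 0.258, adjusted p = 0.00942) for Adipoq and 3.97 (SE 0.224, adjusted p = 0.00565) for Fabp4. Of the 16 skeletal genes 13 were also higher in naïve female 1 than in naïve female 2, by less than the fat cell genes. The share of all genes higher in that rat was not computed. Mb was at 0.127 against 0.0946 CPM, Myoz1 at 0.613 against 0.236 CPM, and Smpx at 19.1 against 11.7 CPM. Over all 16 skeletal genes the sum was 185 to 186 CPM for naïve males, 220 to 230 CPM for CCI males, 119 to 138 CPM for naïve females and 114 to 121 CPM for CCI females. Cdh15 was the largest term of that sum in every library. Cdh15 and Myom2 were lower in CCI than in naïve males, while 14 of the 16 were higher, so the sum does not show the change of most terms. None of the 16 was at 0 in all libraries, which the filter on counts had settled beforehand. The part of adjoining muscle or fat in the levels of the 5 genes was not tested.

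Blood was gauged by 6 red cell genes, of which Hbb, a beta globin, had the most counts. Their sum was 128 and 1370 CPM for the naïve males, 219 to 248 CPM for CCI males, 1335 to 2005 CPM for naïve females and 165 to 210 CPM for CCI females. Both naïve females lay above both CCI females, as for 4 of the 5 muscle genes, but CCI males were not above the other groups. Of the pericyte genes, 3 were tested (Pdgfrb, Cspg4 and Vtn), and summed to 226 to 232 CPM for naïve males, 126 to 128 CPM for CCI males, 168 to 171 CPM for naïve females and 140 to 147 CPM for CCI females. The sum was lowest in CCI males, where Actg2 and Acta2 were highest, but Vtn, the gene with the most counts, was lowest in CCI females, at 44.4 to 46.6 CPM against 52.0 to 53.4 CPM in CCI males. The sum of 6 fibroblast genes, made up mostly of Col3a1, Col1a1 and Dcn, was 1813 to 1863 CPM for CCI males and 2544 to 3030 CPM in the other libraries, while Dpt, another of the 6, was lowest in naïve males. The sum of 5 genes of myelinating Schwann cells, made up mostly of Mbp, was 2865 to 2986 CPM for CCI males and 3483 to 11766 CPM in the other libraries, while Egr2 was lowest in naïve female 1. The part of blood or vessels in the levels of Actg2 and Acta2 was not tested.

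The genes with the profile most like each of the 5 were found by the root mean square difference of log2 CPM, each gene centred on its mean over the 8 libraries. For Actg2, whose own profile had a root mean square of 1.23, these were Clec1b (0.587), Cnn1 (0.609) and Pla2g2a (0.610). For Casq1 (own value 0.963) they were the muscle enolase gene Eno3 (0.314), a gene without a symbol and the clock-controlled transcription factor gene Dbp (0.344). For Mybpc1 (own value 1.73) the second was Myoz1, a Z-disc protein of fast fibres (0.482), and for Car3 (own value 1.76) the third was Myoz1 (0.979), with no symbol for the others. For Acta2 (own value 0.394) none of the 3 closest has a symbol, at 0.147 to 0.157. Between the muscle genes themselves, the difference was smallest for Acta2 and Casq1 (0.661) and largest for Acta2 and Car3 (1.62). Both are pairs of a smooth and a skeletal muscle gene. It was 0.955 for Casq1 and Mybpc1, 0.975 for Actg2 and Acta2 and 1.03 for Actg2 and Casq1. The other pairs were Mybpc1 and Car3 (1.08), Casq1 and Car3 (1.19), Actg2 and Mybpc1 (1.19), Actg2 and Car3 (1.41) and Acta2 and Mybpc1 (1.44).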

How the data were processed

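The authors deposited raw counts of reads per Ensembl gene, without normalization, for 8 libraries. Per the methods and the submitters' processing notes, libraries of poly(A) RNA that keep the strand were read from both ends in 2 sequencing batches, with base calls from CASAVA 1.8.2, alignment to rn6 by HISAT2, removal of ribosomal RNA, counting by featureCounts and no correction for batch. The batch of each library is not given in the sources used here. All 8 sample columns were used.

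Genes were kept with edgeR's filterByExpr (minimum count 10, minimum total 15), normalized with TMM and tested with the quasi-likelihood test of edgeR 4.0.16 in R 4.3.3, on the 4 libraries of a comparison or on all 8 for the interaction. DESeq2 1.42.0 was an alternative. The Benjamini-Hochberg adjustment covered 16988 genes. An SE is the log2FC divided by the root of F, and a prior count of 2 was added for log2 CPM. With 2 rats against 2, no exact two-sided test can go under p = 0.333, so each call rests on a spread shared across genes.

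The members and gene lists were chosen with earlier results of these data known. Other named genes are up to 4 called genes per list, comparison and direction with the largest log2FC, if their mean log2 CPM was 0 or above, the defining markers, the 3 closest profiles and the top gene of those other lists that are described. Actn2, Cdh15, Smpx, the pericyte genes and the genes named from other marker lists were named after their values were seen. Symbols came from the study's tables and were available for 1961 identifiers. Promoter windows were matched by symbol for 4 of the 5 genes. Other filters, size factors, tools, sample sets and libraries left out were tried. Intervals are exact Poisson intervals at 95% and cover counting error only. The fits were also run on simulated counts with changes set in CCI males only and no replicate effect. The outcome is not given and nothing is concluded from it here.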

Additional observations from a re-analysis of the deposited data

Results flagged for a closer look

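In 4 of the muscle genes every CCI male lay above the naïve males and every CCI female below the naïve females, as in 3.59% of all genes tested. The log2FC in females minus that in males was -4.81 for Actg2, -1.05 for Acta2, -2.07 for Casq1 and -4.27 for Mybpc1. These genes were chosen for such a difference, so the values are a description and no test of them is given.

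For 4 genes of the skeletal and smooth muscle lists the interaction term of edgeR's quasi-likelihood test passed the threshold. Of all genes, 0.547% were called lower and 1.04% higher. The log2FC was -2.67 for Actn2, -0.98 for Pygm, -1.41 for Eno3 and 0.90 for Smtn. Of 3 tested genes found in both striated and smooth muscle, Tpm2 (log2FC -1.17, adjusted p = 0.0430) and Flnc (log2FC 0.69, adjusted p = 0.0483) also passed. The study's tables, which supplied their symbols, list genes called on the same libraries. Most fits that leave out 1 library kept none of the 3 skeletal muscle calls, and those fits called nearly none of all genes. The call of Smtn was lost with DESeq2's size factors and with the replicate number as a block.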

How the results depend on the processing

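The male log2FC of the 5 muscle genes kept its sign in all 10 alternatives, as did the female log2FC except that of Car3 without naïve female 1 (0.83). In the naïve comparison the sign changed in 2 alternatives for Acta2 and in 1 each for Mybpc1 and Car3. No sign changed in the interaction. DESeq2's size factors changed no sign among the 23 muscle genes and shifted the median log2FC of all genes most in the interaction, by -0.00988.

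For the skeletal muscle list, the naïve count of 0 was 3 with DESeq2, 1 with no filter on low counts and 2 in the fit over all 8 libraries, and 0 to 2 with each library left out. The male count of 13 ranged from 0 to 15 with each library left out. The female count of 0 was 1 with DESeq2 and 0 to 1 with each library left out. The interaction count of 3 was 5 with DESeq2, 10 with no filter, and 0 to 5 with each library left out. For the smooth muscle list, the naïve count of 0 was 1 with DESeq2 and in the fit over all 8 libraries, and 0 to 1 with each library left out. Its male count of 2 ranged from 0 to 2 and its female count was 0 throughout. Its interaction count of 1 was 2 with DESeq2, with no filter and with at least 10 counts in every library, 0 with DESeq2's size factors, and 0 to 1 with each library left out. A lone rat was assumed to vary like the other group.

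Rats share only a replicate number. The deviations of same-numbered rats correlated across genes at 0.731 between the male groups, 0.129 between the naïve groups and -0.00788 between the female groups, and the file headers add a letter to replicate 1 of both male groups. With the replicate number as a block, the skeletal count was 14 in males, 0 in females, 0 in naïve rats and 3 for the interaction, and the smooth count was 2, 0, 0 and 1, the last being Cnn1 instead of Smtn. Over all genes the block moved the calls from 3663 to 4478 in males, from 967 to 1180 in females, from 12 to 6 in naïve rats and from 270 to 314 for the interaction.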
